A study of Arabidopsis thaliana with 8 samples.

Results

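The comparison set roots of the Arabidopsis thaliana mutant line cml24-2 against roots of wild type Col when no aluminium had been given, over all genes. It uses 4 of the 8 RNA-seq libraries of the study, chosen by their labels: 2 libraries of wild type and 2 of cml24-2 whose nutrient solution held 0 μM AlCl3 for 6 h. Both genotypes were 6-day-old seedlings grown in nutrient solution at pH 5.0, with about 500 seedlings named for the exposure, and RNA came from the roots. The other 4 libraries are the same 2 genotypes after 6 h in 10 μM AlCl3. They helped to estimate the spread and served as a second look at the genotype in other material. The molecular lesion of the cml24-2 allele is not in the labels, and neither is the origin of the replicates (separate cultures or one), so a p-value here measures the spread between these libraries, which may be technical.

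CML24, also known as TCH2, encodes a calmodulin-like protein, a small calcium sensor that binds calcium through EF-hand loops and then changes its hold on partner proteins. Its transcript was first found among the touch-induced TCH genes of Arabidopsis, and the gene has been tied there to flowering time, autophagy, pollen tube growth, abscisic acid and ion responses. Roots use calcium signals in the growth of root hairs, in the loosening and stiffening of cell walls and in responses to nutrients and to wounding or infection.

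Expression is given as CPM, the counts of a gene scaled to a common library total and corrected for library composition, with replicate 1 before replicate 2. Each difference is cml24-2 minus wild type on the log2 scale with its standard error (±), from edgeR's quasi-likelihood test, and the p-values were adjusted (Benjamini-Hochberg) over the 20262 genes tested. A gene was called at an adjusted p under 0.05. Each library held 1.17e+07 to 1.22e+07 reads assigned to genes. The 2 wild-type controls differed from each other more than any other replicate pair: the SD of their log2 ratio was 0.417, against 0.30 for the cml24-2 controls and 0.269 and 0.273 for the pairs with aluminium. Between them, 483 genes were more than 2-fold higher in replicate 2 (2.38% of those tested) and 125 more than 2-fold lower (0.617%). Every call was therefore repeated with each wild-type library as the sole control, and a gene that was called the same way with both controls and with each alone is described as called against each wild-type library. The lone wild-type library is then assumed to vary like the other groups.

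CML24 itself (chromosome 5, positions 14997514 to 14999619 of TAIR10.1, minus strand) did not pass the test. Its level was 43.5 and 102 CPM in wild type and 189 and 118 in cml24-2 (log2 difference 1.08 ± 0.36, adjusted p = 0.079), so the groups did not overlap, as they did not for 55.8% of all genes tested, and the second wild-type library lay close to the second mutant one. Against wild-type replicate 2 alone the log2 difference was 0.54, adjusted p = 0.19, and against replicate 1 alone it was 1.82, adjusted p = 0.002. Among the roots with aluminium, CML24 differed by 1.46 ± 0.37, adjusted p = 0.045. Since the labels do not describe the lesion, a transcript level of this size checks nothing about the genotype.

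Of the 20262 genes tested, 1501 were higher in cml24-2 (7.41%) and 1115 were lower (5.5%). Of these calls, 51.4% were made against each wild-type library: 742 genes higher (3.66%) and 602 lower (2.97%), and among them 421 and 226 differed by at least 2-fold. The libraries of the 2 genotypes did not overlap in any of the 2616 called genes, so for a called gene the lack of overlap adds nothing to its call. No called gene changed sign between the 2 controls, which follows from that lack of overlap and is no separate check. Of the calls that were not made against each, 625 were made with replicate 1 alone, 383 with replicate 2 alone and 264 with neither alone. Leaving out either mutant library lowered the counts in both directions. Without wild-type replicate 1 the count of higher genes fell and that of lower genes rose. Without wild-type replicate 2 both counts rose. Genes called whichever of the 4 libraries was left out numbered 398 higher and 197 lower. The median log2 difference of all genes tested was 0.016.

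**Figure D1:**
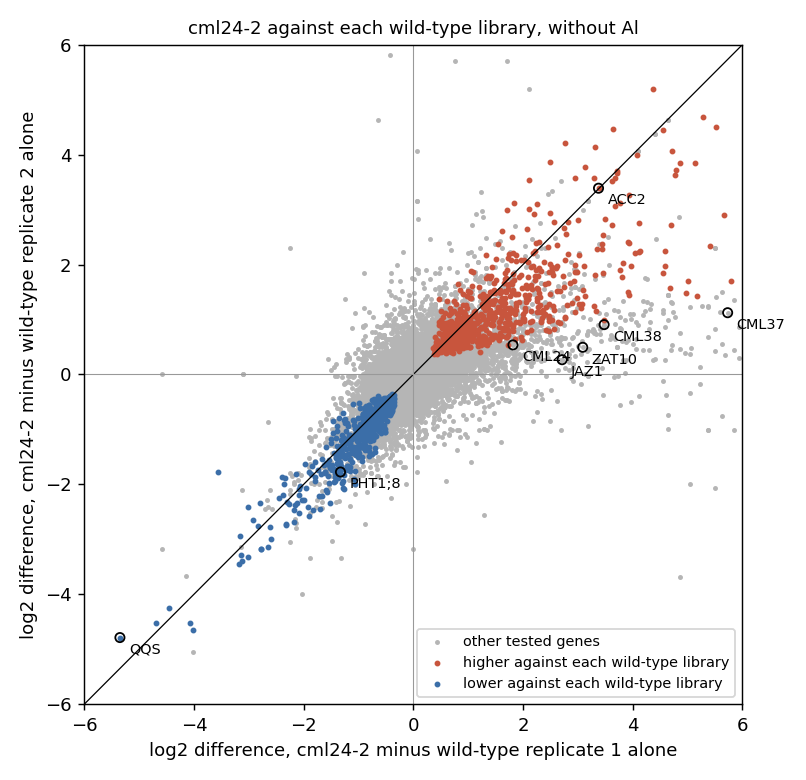
Log2 difference of cml24-2 from wild-type replicate 1 alone (x axis) and from wild-type replicate 2 alone (y axis) for each gene tested, with genes called against each library in red (742 higher) and blue (602 lower); 71 genes lie outside the axes, which end at 6. Points to the right of the diagonal above 0, such as CML37, ZAT10 and JAZ1, were low in wild-type replicate 1 and close to the mutant in replicate 2.

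The largest higher genes were nearly silent in both wild-type libraries and expressed in both mutant ones. They are drawn in the plot of the largest differences, for which non-overlapping groups were a condition. AT2G18190, a AAA-type P-loop ATPase gene, had no count in wild type and 7.45 and 8.56 CPM in cml24-2, which is at least 66.0-fold higher when the wild-type group is set to 3 counts. Its neighbour AT2G18193, of the same family, stood at 7.53 and 6.03 CPM in wild type and 78.2 and 69.4 in cml24-2 (log2 difference 3.44 ± 0.13, adjusted p = 4.6e-06). The 2 genes share reads with other genes in 2 of the 4 libraries, where the counting program divided them, so the split between such copies is uncertain. AT3G10113, a homeodomain-like gene that also shares reads, had no count in wild type and 8.28 and 3.69 CPM in cml24-2, at least 49.4-fold higher on the same floor. AT1G64795, an uncharacterised gene, rested on 1 read in wild type against 444 in cml24-2, a ratio of 460 with a 95% counting interval of 82.2 to 18214. AT5G55270, of the DUF295 family, had 2 reads in wild type and 166 in cml24-2, a ratio of 86.0 (95% counting interval 23.4 to 716). Such genes were off or almost off in wild type, which leaves the size of the ratio poorly fixed. Its direction was the same in every pair of libraries, which the condition of non-overlapping groups already required.

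Other large increases were found in genes for transporters, redox enzymes and transcription factors. AT2G04050, a MATE-family efflux carrier, was at 0.317 and 0.165 CPM in wild type and 36.6 and 48.6 in cml24-2 (log2 difference 7.4 ± 0.30, adjusted p = 5.8e-06). DTX1, another MATE carrier that exports toxic compounds and lies next to it by locus number, was at 1.66 and 1.57 CPM in wild type and 6.53 and 8.98 in cml24-2 (log2 difference 2.25 ± 0.26, adjusted p = 0.0015). AT2G04050 shared reads with other genes in 2 of the 4 libraries and DTX1 in 1. NDB4, an external NAD(P)H dehydrogenase of the mitochondrial inner membrane that bypasses complex I, was at 0.555 and 0.825 CPM in wild type and 19.0 and 25.2 in cml24-2 (log2 difference 4.98 ± 0.32, adjusted p = 8.2e-05). AT5G60250, a RING-type zinc finger gene, was at 0.793 and 0.825 CPM in wild type and 19.8 and 18.0 in cml24-2 (log2 difference 4.53 ± 0.20, adjusted p = 1e-05). Levels of these 4 genes in the 2 mutant libraries lay close together and far above both controls.

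Several of the genes with the largest increases code for transcription factors. NAC103, a NAC factor known for its part in the unfolded protein response, was at 0.238 and 0.578 CPM in wild type and 9.04 and 8.48 in cml24-2 (log2 difference 4.40 ± 0.45, adjusted p = 0.00088), and its log2 difference was 5.14, adjusted p = 0.00049 against wild-type replicate 1 alone. DREB19, an AP2/ERF factor of the DREB group, was at 0.159 and 0.330 CPM in wild type and 5.69 and 3.61 in cml24-2 (log2 difference 4.20 ± 0.57, adjusted p = 0.003). ERF115, an ethylene response factor known from root stem cell renewal and regeneration after wounding, had 3 reads in wild type against 70 in cml24-2, a ratio of 24.2 (95% counting interval 7.94 to 120.1). The related AP2/ERF gene AT5G61890 had 3 reads against 83, a ratio of 28.7 (9.48 to 142). AT5G58610, a PHD finger gene, was at 0.872 and 1.90 CPM in wild type and 20.8 and 27.7 in cml24-2 (log2 difference 4.13 ± 0.29, adjusted p = 0.00016), and it differed by 4.78, adjusted p = 3.6e-05 from wild-type replicate 1 alone. The remaining genes of this group were AT3G24780, AT3G54530 and AT5G53230. AT3G24780, of the UCP015417 family, was at 0.714 and 1.4 CPM in wild type and 31.2 and 35.0 in cml24-2 (log2 difference 4.96 ± 0.23, adjusted p = 1.3e-05). The uncharacterised AT3G54530 was at 0.159 and 0.248 CPM in wild type and 3.85 and 5.04 in cml24-2 (log2 difference 4.39 ± 0.41, adjusted p = 0.00066). AT5G53230, of the DUF295 family, had 3 reads against 62, a ratio of 21.4 (95% counting interval 7.0 to 107).

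**Figure D2:**
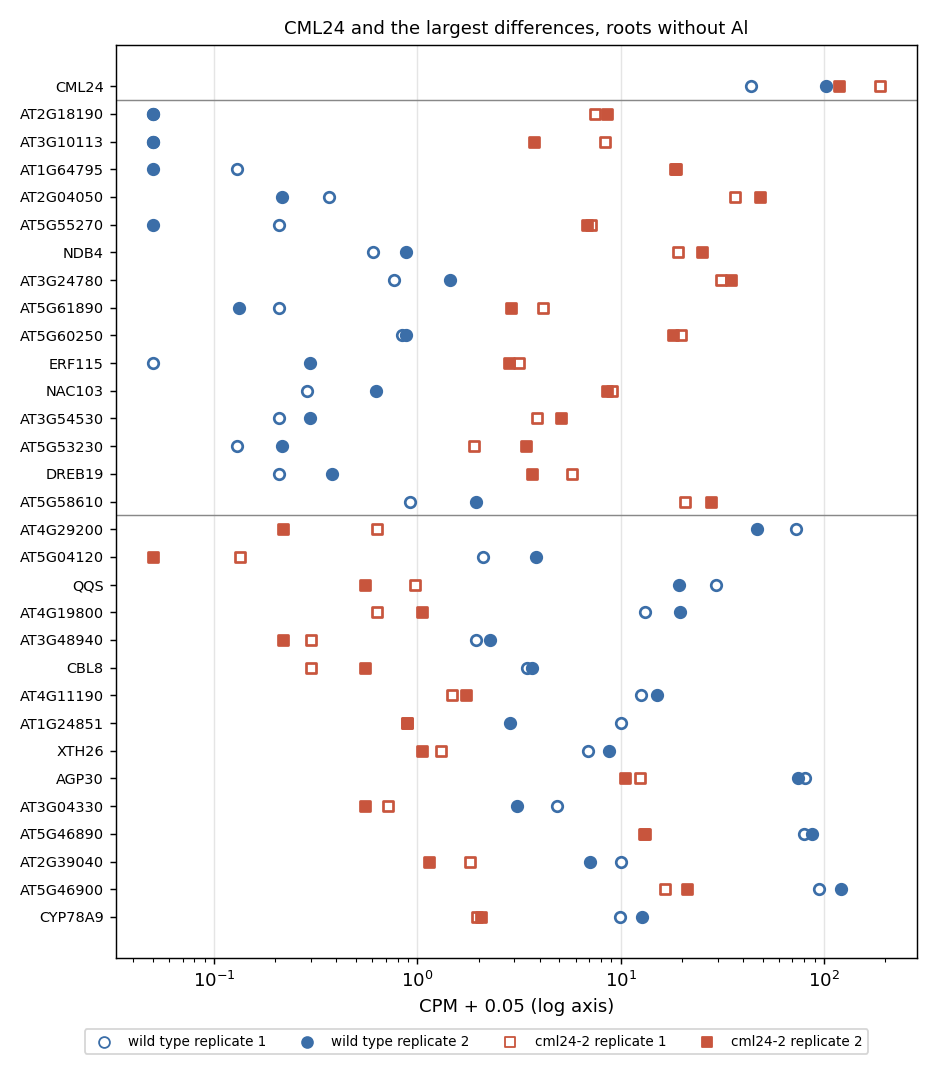
CPM of CML24 and of the 15 largest differences in each direction among genes called against each wild-type library, with 0.05 added and on a log axis; circles are wild type and squares cml24-2, open for replicate 1 and filled for replicate 2. Non-overlapping groups were a condition for every gene below CML24, and the gaps differ in size, with QQS at 29.4 and 19.3 CPM against 0.920 and 0.504 CPM.

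Some abundant genes, chosen here after their values were seen, moved with very small errors. AT5G13210, the second UCP015417 gene, was at 16.3 and 15.9 CPM in wild type and 213 and 213 in cml24-2 (log2 difference 3.73 ± 0.10, adjusted p = 5.4e-07). EMB1030, annotated as an alanyl-tRNA synthetase and known as a gene needed for embryo development, was at 7.37 and 7.35 CPM in wild type and 95.9 and 97.5 in cml24-2 (log2 difference 3.71 ± 0.12, adjusted p = 2.3e-06). ACC2, the plastid form of acetyl-CoA carboxylase made as a single chain, was at 12.4 and 11.9 CPM in wild type and 124 and 133 in cml24-2 (log2 difference 3.40 ± 0.13, adjusted p = 4.6e-06); its reads were shared with other genes in 3 libraries. The replicates of these 3 genes differed by far less than the genotypes did. AT1G17960, a threonyl-tRNA synthetase gene, was at 5.79 and 3.63 CPM in wild type and 40.1 and 49.1 in cml24-2 (log2 difference 3.24 ± 0.23, adjusted p = 0.00016). AT5G10695, annotated as a methionyl-tRNA synthetase, was at 11.7 and 15.1 CPM in wild type and 64.4 and 44.0 in cml24-2 (log2 difference 2.02 ± 0.20, adjusted p = 0.00087). Over the 52 aminoacyl-tRNA synthetase genes tested, 4 were higher (7.69%, near the 7.41% of all genes) and none was lower. Of the 4, 3 were called against each wild-type library. The median log2 difference of the family was 0.04 beside 0.016 for all genes.

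Promoter windows were searched for the letters ACGCGT, the core of an element bound by CAMTA factors, which are transcription factors that bind calmodulin. The windows are the 300 bases before the annotated gene start (RefSeq, TAIR10.1), searched on both strands. The motif was in 6.11% of the windows of genes higher against each wild-type library (45 of 736), in 1.33% of those lower (8 of 602) and in 2.07% of all tested (418 of 20190). It was in 5.17% of the windows of genes higher with both controls but not against each (39 of 754). TTGACC, a form of the W-box read by WRKY factors, was in 18.8%, 11.6% and 14.2% of the higher, lower and all windows. The G-box CACGTG was in 7.07%, 7.31% and 7.83% of them. The evening element AATATCT was in 13.9%, 13.6% and 11.7% of them, and the telo-box AACCCTA in 5.71%, 3.65% and 6.27%. The letters of ACGCGT lead here because the ratio of their shares in higher and lower genes was the largest of the 6 motifs searched, a choice made after the values were seen. These shares describe the windows and show no binding. Of the list genes described further on, 7 that were higher against each wild-type library held ACGCGT, and the 4 with the smallest p are shown because they span a hormone enzyme, a wall peroxidase, a transcription factor and a malate channel. Each window is given 5′ to 3′ on the gene's strand with the motif in capitals. The first base of the motif lay 146 bases before the start in GA2OX2 (chr1:10537157-10537456, plus strand), 83 in PRX52 (chr5:1580876-1581175, minus strand), 220 in ERF115 (chr5:2305251-2305550, plus strand) and 118 in ALMT1 (chr1:2658302-2658601, plus strand).
GA2OX2: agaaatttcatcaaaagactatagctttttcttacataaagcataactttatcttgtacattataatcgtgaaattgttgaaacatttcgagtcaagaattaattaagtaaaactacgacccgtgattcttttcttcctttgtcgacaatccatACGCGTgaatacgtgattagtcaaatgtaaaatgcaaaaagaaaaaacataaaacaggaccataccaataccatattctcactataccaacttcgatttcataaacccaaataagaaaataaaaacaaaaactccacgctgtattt
PRX52: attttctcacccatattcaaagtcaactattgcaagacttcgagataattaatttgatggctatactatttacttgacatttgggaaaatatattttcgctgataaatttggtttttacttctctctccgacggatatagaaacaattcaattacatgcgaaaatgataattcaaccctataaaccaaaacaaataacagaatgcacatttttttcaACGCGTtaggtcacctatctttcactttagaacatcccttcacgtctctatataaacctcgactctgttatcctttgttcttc
ERF115: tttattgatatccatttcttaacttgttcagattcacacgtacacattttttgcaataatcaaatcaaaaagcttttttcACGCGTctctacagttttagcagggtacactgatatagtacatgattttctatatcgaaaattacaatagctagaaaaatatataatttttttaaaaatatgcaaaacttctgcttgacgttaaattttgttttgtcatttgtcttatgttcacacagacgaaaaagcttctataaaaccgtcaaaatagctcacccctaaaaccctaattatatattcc
ALMT1: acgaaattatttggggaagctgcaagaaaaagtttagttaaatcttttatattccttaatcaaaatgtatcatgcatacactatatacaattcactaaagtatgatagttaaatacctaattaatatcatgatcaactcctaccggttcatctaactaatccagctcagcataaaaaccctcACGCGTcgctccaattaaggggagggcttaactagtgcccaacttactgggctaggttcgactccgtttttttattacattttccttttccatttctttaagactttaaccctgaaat

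The strongest decreases included genes that fell almost to nothing in the mutant. AT4G29200, annotated as related to beta-galactosidase, was at 72.8 and 46.6 CPM in wild type and 0.586 and 0.168 in cml24-2 (log2 difference -7.27 ± 0.45, adjusted p = 6.9e-05). Its log2 difference was -8.39 without cml24-2 replicate 1 and -6.65 without replicate 2. QQS, a gene found only in Arabidopsis thaliana that affects starch content, was at 29.4 and 19.3 CPM in wild type and 0.920 and 0.504 in cml24-2 (log2 difference -5.08 ± 0.33, adjusted p = 8.2e-05). QQS is known to vary between strains and with DNA methylation. The other 6 tested genes of the list of strain checks, ER, FRI, MAF2 and the anthranilate pathway genes PAI1, PAI2 and PAI3, did not pass the test, with log2 differences from -0.23 in PAI2 to 0.57 in ER (adjusted p = 0.47 and 0.37). That list held 12 genes, of which 7 were tested. ER was low, at 1.51 and 1.65 CPM in wild type, and PAI1, PAI2, PAI3 and MAF2 shared reads in all 4 libraries. A difference in strain background was not tested. AT4G19800, a chitinase-like glycosyl hydrolase with shared reads, was at 13.1 and 19.5 CPM in wild type and 0.586 and 1.01 in cml24-2 (log2 difference -4.33 ± 0.34, adjusted p = 0.00026). AT5G04120, of the phosphoglycerate mutase family, had 72 reads in wild type and 1 in cml24-2, a ratio of 69.5 with a 95% counting interval of 12.1 to 2782, and its call was lost without either mutant library (adjusted p = 0.1 and 0.11).

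Among the other large decreases were a calcium sensor, wall proteins and secreted small proteins. CBL8, a calcineurin B-like calcium sensor that partners CIPK kinases, was at 3.41 and 3.63 CPM in wild type and 0.251 and 0.504 in cml24-2 (log2 difference -3.19 ± 0.38, adjusted p = 0.0018). AT3G48940, a remorin of the plasma membrane, was at 1.90 and 2.23 CPM in wild type and 0.251 and 0.168 in cml24-2 (log2 difference -3.24 ± 0.53, adjusted p = 0.0066), with an adjusted p of 0.051 without cml24-2 replicate 1 and 0.054 without replicate 2. AT4G11190, a dirigent-like gene, was at 12.5 and 15 CPM in wild type and 1.42 and 1.68 in cml24-2 (log2 difference -3.14 ± 0.30, adjusted p = 0.00069). AT1G24851, an uncharacterised gene with shared reads, was at 9.99 and 2.81 CPM in wild type and 0.837 and 0.840 in cml24-2 (log2 difference -2.92 ± 0.61, adjusted p = 0.017); it differed by -1.78, adjusted p = 0.015 from wild-type replicate 2 alone and was not called without either mutant library (adjusted p = 0.1 and 0.092). AT3G04330, a Kunitz-type protease inhibitor, was at 4.84 and 3.05 CPM in wild type and 0.669 and 0.504 in cml24-2 (log2 difference -2.73 ± 0.42, adjusted p = 0.0051). AT2G39040, a class III peroxidase, was at 9.99 and 7.02 CPM in wild type and 1.76 and 1.09 in cml24-2 (log2 difference -2.57 ± 0.33, adjusted p = 0.0025). CYP78A9, a cytochrome P450 known from organ growth, was at 9.91 and 12.6 CPM in wild type and 1.92 and 2.01 in cml24-2 (log2 difference -2.51 ± 0.30, adjusted p = 0.0018).

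The neighbours AT5G46890 and AT5G46900, lipid-transfer-type proteins that share reads, fell together. AT5G46890 was at 79.4 and 86.8 CPM in wild type and 13.0 and 13.1 in cml24-2 (log2 difference -2.67 ± 0.12, adjusted p = 8.5e-06). AT5G46900 was at 94.5 and 122 CPM in wild type and 16.5 and 21.2 in cml24-2 (log2 difference -2.52 ± 0.22, adjusted p = 0.00073). Of the 61 lipid-transfer-type genes tested, 14 were lower (23.0%, beside 5.5% of all genes) and 11 higher (18.0%, beside 7.41%), and 11 and 7 of these against each wild-type library. Without wild-type replicate 1, wild-type replicate 2, cml24-2 replicate 1 and cml24-2 replicate 2, 19, 15, 6 and 7 were lower and 7, 14, 8 and 9 higher. XYP1, xylogen protein 1 of this family, which takes part in vessel formation, went the other way at 2.14 and 3.3 CPM in wild type and 9.87 and 10.6 in cml24-2 (log2 difference 1.91 ± 0.21, adjusted p = 0.0013). Of 13 defensin-like genes 4 were lower (30.8%), all 4 against each wild-type library, and none was higher; 4, 4, 2 and 3 were lower with the libraries left out in the same order. Both families were chosen after their values were seen. TCP2, a TCP transcription factor chosen here after its values were seen, was at 3.81 and 5.28 CPM in wild type and 0.837 and 0.840 in cml24-2 (log2 difference -2.42 ± 0.36, adjusted p = 0.0042).

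Many phosphate starvation genes were lower in cml24-2, 54.5% of those tested, beside 5.5% of all genes. Higher members made up 9.09%, beside 7.41%. When phosphate runs low, PHR-type factors switch on phosphate uptake carriers, secreted acid phosphatases and enzymes that replace membrane phospholipids by galactolipids and sulfolipids, while SPX proteins and PHO2 hold the response back. Of 33 tested members of the list, 18 were lower and 3 higher, 10 and 1 of them against each wild-type library, and the median log2 difference was -0.72 beside 0.016 for all genes. With wild-type replicate 1, wild-type replicate 2, cml24-2 replicate 1 and cml24-2 replicate 2 left out in turn, 23, 10, 7 and 6 members were lower. For the uptake and transfer of phosphate, PHT1;8, a phosphate carrier, was at 31.6 and 41.7 CPM in wild type and 12 and 13.2 in cml24-2 (log2 difference -1.54 ± 0.18, adjusted p = 0.0015). PHO1;H1, which loads phosphate into the xylem, was at 149.8 and 166 CPM in wild type and 73.5 and 64.2 in cml24-2 (log2 difference -1.20 ± 0.17, adjusted p = 0.0034). Both carriers were lower in each mutant library than in each control, as was every gene called lower. Of the sensors and the noncoding brakes, SPX1 was at 406 and 487 CPM in wild type and 192 and 192 in cml24-2 (log2 difference -1.22 ± 0.17, adjusted p = 0.0036). SPX2 was at 37.6 and 31.7 CPM in wild type and 19.9 and 19.8 in cml24-2 (log2 difference -0.80 ± 0.13, adjusted p = 0.006). AT4, a noncoding RNA that sequesters a microRNA against PHO2, was at 619 and 706 CPM in wild type and 370.1 and 285 in cml24-2 (log2 difference -1.02 ± 0.23, adjusted p = 0.024), and was not called without either mutant library (adjusted p = 0.064 and 0.14). PHO2, the ubiquitin-conjugating enzyme that removes phosphate carriers, went up, at 309.5 and 252 CPM in wild type and 458 and 472 in cml24-2 (log2 difference 0.73 ± 0.13, adjusted p = 0.0082).

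The enzymes of lipid replacement and phosphate scavenging were among the members that fell. SQD2, which makes sulfolipid, was at 601 and 699 CPM in wild type and 267 and 242 in cml24-2 (log2 difference -1.35 ± 0.18, adjusted p = 0.0028). MGD2 and MGD3 make galactolipid outside the main chloroplast route. MGD2 was at 38.6 and 40.9 CPM in wild type and 17.0 and 14.2 in cml24-2 (log2 difference -1.35 ± 0.23, adjusted p = 0.0069). MGD3 was at 147 and 198 CPM in wild type and 86.9 and 74.5 in cml24-2 (log2 difference -1.09 ± 0.21, adjusted p = 0.013). Without cml24-2 replicate 1 and without replicate 2 their adjusted p was 0.039 and 0.053 for MGD2 and 0.059 and 0.088 for MGD3. The acid phosphatase PAP17 was at 134 and 145 CPM in wild type and 70.6 and 64.1 in cml24-2 (log2 difference -1.05 ± 0.15, adjusted p = 0.0035). The acid phosphatase PAP12 was at 82.1 and 84.9 CPM in wild type and 60.3 and 54.1 in cml24-2 (log2 difference -0.55 ± 0.12, adjusted p = 0.02) and lost its call without cml24-2 replicate 1 (adjusted p = 0.064) and without replicate 2 (adjusted p = 0.12). The letters GNATATNC, the element read by PHR factors, were added to the search after the values were seen. They were in 8 of the 33 windows of the list (24.2%), in 27.8% of those of the 18 lower members, in 20% of those of the other 15 and in 6.56% of all windows.

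**Figure D3:**
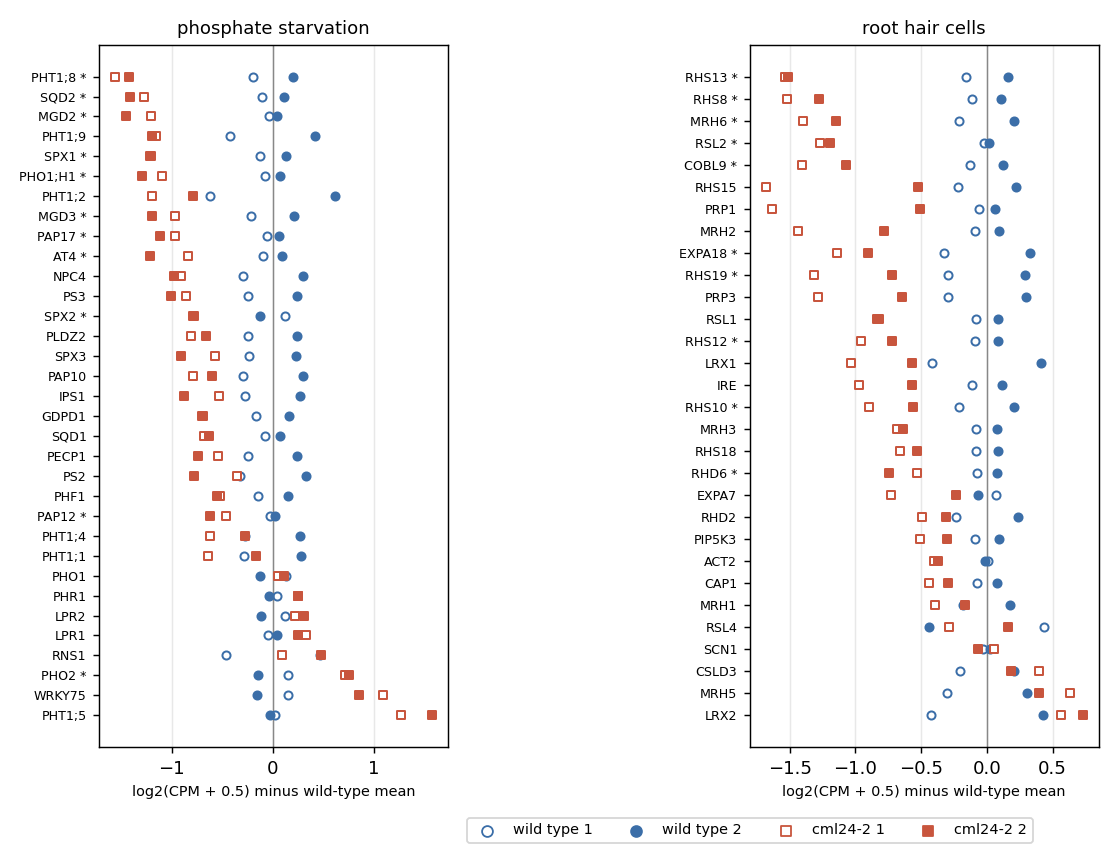
Each tested member of the phosphate starvation list (left) and of the root hair list (right), as log2(CPM + 0.5) minus the mean of the 2 wild-type libraries, with circles for wild type and squares for cml24-2, open for replicate 1 and filled for replicate 2. A star marks members called against each wild-type library, which are 11 of 33 and 10 of 30.

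Many genes that mark root hair cells were lower too, 50% of those tested, beside 5.5% of all genes. Root hairs are tubes that grow from single epidermal cells by calcium-guided secretion of wall material, under bHLH factors of the RHD6 and RSL group. Of 30 tested markers, 15 were lower and none higher, 10 of them against each wild-type library, and the median log2 difference was -0.77. With the 4 libraries left out in the same order, 19, 10, 4 and 13 were lower. In bulk roots, fewer hair cells and less RNA per hair cell cannot be told apart. RSL2, one of the hair growth factors, was at 21.6 and 22.2 CPM in wild type and 8.79 and 9.32 in cml24-2 (log2 difference -1.27 ± 0.17, adjusted p = 0.0025). COBL9, a wall-anchored protein needed for hair growth, was at 52.0 and 62.0 CPM in wild type and 21.1 and 26.7 in cml24-2 (log2 difference -1.25 ± 0.16, adjusted p = 0.0023). RHS13, a proline-rich root hair protein, was at 90.5 and 113 CPM in wild type and 34.6 and 35.1 in cml24-2 (log2 difference -1.55 ± 0.16, adjusted p = 0.00088). RHS8 was at 17.9 and 21 CPM in wild type and 6.44 and 7.72 in cml24-2 (log2 difference -1.46 ± 0.18, adjusted p = 0.0019). For these 4 genes the mutant libraries were below both controls, as for every gene called lower. The list for epidermal fate, which sets hair against non-hair files, had 1 of 13 members higher (7.69%) and 2 lower (15.4%). None of them was called against each wild-type library. Over all genes 7.41% were higher and 5.5% lower.

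Arabinogalactan proteins, heavily glycosylated proteins of the cell surface, made up most of a further group that fell. On their list with extensins 40.7% were lower and 14.8% higher, beside 5.5% and 7.41% of all genes. Of 27 tested arabinogalactan proteins and extensins 11 were lower and 4 higher, 10 and 2 of them against each wild-type library, with a median of -0.64. With the libraries left out in turn 16, 10, 8 and 9 were lower and 2, 5, 1 and 2 higher. AGP30, known from root regeneration and seed germination, was at 80.9 and 74.9 CPM in wild type and 12.4 and 10.4 in cml24-2 (log2 difference -2.77 ± 0.18, adjusted p = 8.2e-05). The arabinogalactan peptide AGP22 was at 136 and 103 CPM in wild type and 29.3 and 24.2 in cml24-2 (log2 difference -2.16 ± 0.15, adjusted p = 0.00015). Of the other short arabinogalactan peptides, AGP13 was at 44.9 and 43.7 CPM in wild type and 15.3 and 13.7 in cml24-2 (log2 difference -1.61 ± 0.13, adjusted p = 0.00032). AGP21 was at 68.9 and 61.3 CPM in wild type and 19.0 and 24.8 in cml24-2 (log2 difference -1.57 ± 0.15, adjusted p = 0.00066). AGP14 was at 97.3 and 79.4 CPM in wild type and 40.3 and 44.7 in cml24-2 (log2 difference -1.05 ± 0.13, adjusted p = 0.002). EXT1 (AT1G76930, named extensin 4 in RefSeq), a structural wall protein that is crosslinked by peroxidases, was higher, at 138 and 183 CPM in wild type and 654 and 737 in cml24-2 (log2 difference 2.12 ± 0.16, adjusted p = 0.00024). Its reads were shared with other genes in 2 libraries.

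Enzymes that remodel xyloglucan and loosen walls moved both ways, with 32.3% lower and 22.6% higher, beside 5.5% and 7.41% of all genes. Of 31 tested xyloglucan endotransglucosylase/hydrolase (XTH) and expansin genes 10 were lower and 7 higher, 6 and 6 of them against each wild-type library, with a median of -0.09. The counts with the libraries left out in turn were 7, 9, 5 and 5 lower and 7, 10, 4 and 5 higher. XTH26, known from root hairs, was at 6.90 and 8.75 CPM in wild type and 1.26 and 1.01 in cml24-2 (log2 difference -2.78 ± 0.28, adjusted p = 0.00088). XTH14 was at 87.0 and 111 CPM in wild type and 27.9 and 37.8 in cml24-2 (log2 difference -1.59 ± 0.18, adjusted p = 0.0015). XTH16 was at 41.1 and 37.6 CPM in wild type and 17.2 and 14.3 in cml24-2 (log2 difference -1.32 ± 0.14, adjusted p = 0.0011). XTH17, which shares reads in all 4 libraries, was at 30.1 and 34.1 CPM in wild type and 5.02 and 8.56 in cml24-2 (log2 difference -2.24 ± 0.31, adjusted p = 0.0033). All 4 were lower in the mutant. In the other direction, XTH20 was at 12.2 and 21.8 CPM in wild type and 49.5 and 50.3 in cml24-2 (log2 difference 1.55 ± 0.21, adjusted p = 0.0029). The expansin EXPA4 was at 38.3 and 55.5 CPM in wild type and 114 and 145 in cml24-2 (log2 difference 1.47 ± 0.18, adjusted p = 0.002). EXPA8 was at 1.43 and 1.73 CPM in wild type and 5.52 and 7.98 in cml24-2 (log2 difference 2.09 ± 0.28, adjusted p = 0.0029).

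Class III peroxidases, which use hydrogen peroxide to crosslink or loosen the wall, also divided. Their list had 23.8% higher and 23.8% lower, beside 7.41% and 5.5% of all genes. Of 21 tested genes of this list 5 were higher and 5 lower, 5 and 4 of them against each wild-type library, and with the libraries left out in turn 5, 5, 4 and 3 were higher and 7, 4, 1 and 6 lower. PRX52, which takes part in making lignin, was at 1.19 and 0.413 CPM in wild type and 8.70 and 7.56 in cml24-2 (log2 difference 3.31 ± 0.29, adjusted p = 0.00045), and it differed by 4.22, adjusted p = 0.00016 from wild-type replicate 2 alone. AT5G39580 was at 26.8 and 34.5 CPM in wild type and 106 and 115 in cml24-2 (log2 difference 1.85 ± 0.14, adjusted p = 0.00025). PRX71 was at 26.4 and 35.2 CPM in wild type and 74.1 and 94.9 in cml24-2 (log2 difference 1.46 ± 0.20, adjusted p = 0.0029). AT4G26010, a peroxidase of hair cells, was lower at 153 and 199 CPM in wild type and 80.5 and 96.9 in cml24-2 (log2 difference -0.99 ± 0.15, adjusted p = 0.0052). On the phenylpropanoid and lignin list 10.7% were higher, beside 7.41% of all genes. Genes for phenylpropanoids and lignin had 3 of 28 tested members higher and none lower, 1 of them against each wild-type library (1, 4, 1 and 1 higher with the libraries left out in turn).

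Aquaporins, the channels that carry water across membranes, were lower on balance of their counts. Lower members made up 44.4% and higher ones 11.1%, beside 5.5% and 7.41% of all genes. Of 27 tested, 12 were lower and 3 higher, 9 and none against each wild-type library, with a median of -0.42; leaving out the libraries in turn left 10, 17, 4 and 8 lower. TIP2;1 of the vacuole membrane was at 152 and 145 CPM in wild type and 54.0 and 57.4 in cml24-2 (log2 difference -1.42 ± 0.09, adjusted p = 8.2e-05). TIP2;3, which also carries ammonia, was at 151 and 106 CPM in wild type and 31.2 and 28.2 in cml24-2 (log2 difference -2.11 ± 0.22, adjusted p = 0.00095). PIP2;4 of the plasma membrane was at 71.7 and 54.0 CPM in wild type and 28.4 and 26.3 in cml24-2 (log2 difference -1.20 ± 0.16, adjusted p = 0.0028). These 3 channels were lower in both mutant libraries, as was every gene called lower.

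Of 17 tested genes on the sulfate list 2 were lower (11.8%, beside 5.5% of all genes) and none higher, with a list median of 0.02. Both are high-affinity sulfate carriers. SULTR1;1, which takes up sulfate at the root surface, was at 21.1 and 27.7 CPM in wild type and 5.86 and 8.65 in cml24-2 (log2 difference -1.75 ± 0.21, adjusted p = 0.0018). SULTR1;3, which works in the phloem, was at 56.8 and 73.7 CPM in wild type and 22.8 and 23.3 in cml24-2 (log2 difference -1.50 ± 0.18, adjusted p = 0.002). On the iron deficiency list 12.5% were higher and 9.38% lower, and on the nitrate list 6.25% and 3.12%. Over all genes these shares were 7.41% and 5.5%. Of 32 iron deficiency genes 4 were higher and 3 lower, 2 and none against each wild-type library, and with the libraries left out in turn 2, 6, 1 and 1 were higher. CYP82C4, which turns fraxetin into sideretin for iron mobilisation, was at 36.5 and 39.9 CPM in wild type and 108 and 81.2 in cml24-2 (log2 difference 1.31 ± 0.24, adjusted p = 0.0099); its adjusted p was 0.071 without cml24-2 replicate 1, and its reads were shared in 3 libraries. Nitrate genes had 2 of 32 higher and 1 lower, only the lower one against each wild-type library (1, 5, 0 and 1 higher with the libraries left out).

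Of calmodulins and calmodulin-like genes, 3 of 31 were higher (9.68%) and 1 lower (3.23%), near the 7.41% and 5.5% of all genes. The 3 higher ones were called against each wild-type library, and the median log2 difference of the list was 0.11. CML12, the touch gene TCH3, was at 39.2 and 58.8 CPM in wild type and 162 and 112 in cml24-2 (log2 difference 1.48 ± 0.21, adjusted p = 0.0035). AT2G41410, an EF-hand gene, was at 95.8 and 115 CPM in wild type and 204 and 167 in cml24-2 (log2 difference 0.81 ± 0.13, adjusted p = 0.0053). The EF-hand gene AT3G10190 was at 18.2 and 18.7 CPM in wild type and 33.1 and 32.9 in cml24-2 (log2 difference 0.84 ± 0.11, adjusted p = 0.0025). With wild-type replicate 1 as the sole control 12 members were higher. CML37, a calmodulin-like gene of drought and herbivory responses, was at 1.03 and 24.5 CPM in wild type and 74.8 and 35.8 in cml24-2 (log2 difference 2.12 ± 0.82, adjusted p = 0.12). CML38 was at 10.2 and 58.9 CPM in wild type and 159 and 69.4 in cml24-2 (log2 difference 1.73 ± 0.64, adjusted p = 0.11). CML39 was at 0.634 and 4.62 CPM in wild type and 12.7 and 2.94 in cml24-2 (log2 difference 1.58 ± 0.78, adjusted p = 0.21). For these 3 the first wild-type library was lowest and the second lay within the range of the mutant or close to it. CML23, the nearest relative of CML24, was at 4.44 and 17.7 CPM in wild type and 18.2 and 7.72 in cml24-2 (log2 difference 0.23 ± 0.56, adjusted p = 0.83), with overlapping groups. For calcium transport and decoding, 4 of 35 were higher and 3 lower, 1 and 1 against each wild-type library (2, 6, 0 and 2 higher with the libraries left out in the order used for phosphate). These 2 are calcium pumps that remove calcium from the cytosol. The calcium transport and decoding list had 11.4% higher and 8.57% lower, beside 7.41% and 5.5% of all genes. ACA1 was at 73.3 and 109 CPM in wild type and 215 and 167 in cml24-2 (log2 difference 1.07 ± 0.21, adjusted p = 0.013). It lost its call without cml24-2 replicate 1 (adjusted p = 0.089) and in the fit of the 4 libraries alone (adjusted p = 0.059). ACA9 was at 19.7 and 22.8 CPM in wild type and 7.78 and 8.73 in cml24-2 (log2 difference -1.36 ± 0.17, adjusted p = 0.0023).

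Touch-inducible genes had the largest difference between the 2 wild-type controls of the groups described. Higher members made up 33.3% of their list, beside 7.41% of all genes. Of 18 tested members 6 were higher and none lower, 5 of them against each wild-type library, and the median log2 difference was 1.54, being 2.59 against wild-type replicate 1 alone and 0.81 against replicate 2 alone. The median of replicate 2 minus replicate 1 within wild type was 2.15, and the summed level of the list was 531.3 and 1843 CPM in wild type against 3659 and 2384 CPM in cml24-2. With the libraries left out in turn 6, 15, 1 and 4 members were higher. XTH22, the touch gene TCH4 and a xyloglucan enzyme, was at 37.3 and 82.5 CPM in wild type and 254 and 162 in cml24-2 (log2 difference 1.79 ± 0.33, adjusted p = 0.0099). It differed by 2.47, adjusted p = 0.0002 from wild-type replicate 1 alone, and was not called without cml24-2 replicate 1 (adjusted p = 0.067) or in the fit of the 4 libraries alone (adjusted p = 0.064). Of 3 other genes, chosen here after their values were seen, none passed the test. The zinc finger gene ZAT10 was at 54.4 and 318 CPM in wild type and 527 and 399 in cml24-2 (log2 difference 1.32 ± 0.58, adjusted p = 0.17). The jasmonate repressor gene JAZ1 was at 63.7 and 336 CPM in wild type and 503 and 333 in cml24-2 (log2 difference 1.07 ± 0.57, adjusted p = 0.25). WRKY40 was at 3.57 and 46.0 CPM in wild type and 127 and 70.2 in cml24-2 (log2 difference 2.00 ± 0.76, adjusted p = 0.12). What set the 2 controls apart was not tested.

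WRKY factors, which steer defence and stress genes through the W-box, were the list with the highest share of higher members. That share was 40.6%, beside 7.41% of all genes. Of 32 tested, 13 were higher and none lower, 10 of them against each wild-type library, and the median was 0.74; with the libraries left out in turn 11, 19, 5 and 7 were higher. WRKY23, known from root stem cells and nematode feeding sites, was at 4.28 and 4.62 CPM in wild type and 12.8 and 14.6 in cml24-2 (log2 difference 1.62 ± 0.14, adjusted p = 0.00042). WRKY28 was at 4.36 and 3.96 CPM in wild type and 11.9 and 11.3 in cml24-2 (log2 difference 1.48 ± 0.15, adjusted p = 0.00088). WRKY26, known from heat responses, was at 22.4 and 23.4 CPM in wild type and 48.1 and 36.7 in cml24-2 (log2 difference 0.89 ± 0.13, adjusted p = 0.004). WRKY48 was at 7.45 and 25.8 CPM in wild type and 151 and 95.5 in cml24-2 (log2 difference 2.90 ± 0.43, adjusted p = 0.0044), with 2.21 against wild-type replicate 2 alone and 4.04 against replicate 1 alone. WRKY23, WRKY26 and WRKY28 had nearly equal controls, and WRKY48 did not.

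Some immune and hormone-responsive defence genes were higher. Shares of higher members were 21.4% (salicylate and immunity), 14.7% (ethylene and ERF), 14.3% (jasmonate) and 10% (glucosinolates), beside 7.41% of all genes. In the same order 3.57%, 2.94%, 0% and 6.67% were lower, beside 5.5% of all genes. On the salicylate and immunity list 6 of 28 were higher and 1 lower, 5 and none against each wild-type library, with a median of 0.76, and with the libraries left out in turn 5, 17, 3 and 5 were higher. SAG101, a partner of EDS1 in immune signalling, was at 23.1 and 26.7 CPM in wild type and 50.3 and 44.5 in cml24-2 (log2 difference 0.93 ± 0.12, adjusted p = 0.0027). BIK1, a kinase that passes on signals of pattern receptors, was at 27.7 and 32.2 CPM in wild type and 53.1 and 52.2 in cml24-2 (log2 difference 0.81 ± 0.11, adjusted p = 0.0033). PHI-1, an EXORDIUM-like cell wall gene also counted on this list, was at 3.25 and 8.83 CPM in wild type and 40.4 and 24.0 in cml24-2 (log2 difference 2.42 ± 0.38, adjusted p = 0.0056), with 1.82 against wild-type replicate 2 alone and 3.3 against replicate 1 alone. Of 34 ethylene and ERF genes 5 were higher and 1 lower, all 6 against each wild-type library (6, 15, 3 and 1 higher with the libraries left out in turn). Of 28 jasmonate genes 4 were higher and none lower, 1 against each wild-type library (2, 14, 1 and 2 higher with the libraries left out). That one is CYP94B3, which inactivates jasmonoyl-isoleucine, at 9.20 and 13.7 CPM in wild type and 89.2 and 41.1 in cml24-2 (log2 difference 2.51 ± 0.36, adjusted p = 0.0037), with 1.84 without cml24-2 replicate 1. Glucosinolate genes had 3 of 30 higher and 2 lower (2, 14, 0 and 2 higher with the libraries left out), among the lower BGLU21, a beta-glucosidase of roots with shared reads, at 1223 and 1271 CPM in wild type and 807 and 693 in cml24-2 (log2 difference -0.73 ± 0.11, adjusted p = 0.0046).

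Genes of mitochondrial retrograde signalling, by which impaired mitochondria change nuclear transcription through membrane-tethered NAC factors, were higher in part. The higher share was 33.3%, beside 7.41% of all genes. Of 21 tested 7 were higher and none lower, 5 against each wild-type library, with a median of 0.45; 8, 9, 5 and 4 were higher with the libraries left out in turn. The list includes NDB4 and DTX1, described above. ANAC013, one of those tethered factors, was at 14.0 and 14.9 CPM in wild type and 22.4 and 23.6 in cml24-2 (log2 difference 0.67 ± 0.10, adjusted p = 0.0046). UGT74E2, which glucosylates the auxin indole-butyric acid, was at 0.555 and 0.825 CPM in wild type and 4.18 and 10.2 in cml24-2 (log2 difference 3.37 ± 0.50, adjusted p = 0.0041), with 2.58 without cml24-2 replicate 2. NAC factors as a whole, a family chosen after its values were seen, had 19 of 74 tested members higher (25.7%, beside 7.41% of all genes) and none lower, 13 of them against each wild-type library (17.6%, beside 3.66%). With the libraries left out in turn 13, 17, 11 and 13 of them were higher. NAC044, known from the arrest of division after DNA damage, was at 2.06 and 2.15 CPM in wild type and 27.4 and 25.6 in cml24-2 (log2 difference 3.65 ± 0.28, adjusted p = 0.00026). ATAF1, of stress and abscisic acid responses, was at 13.5 and 21.1 CPM in wild type and 56.7 and 42.1 in cml24-2 (log2 difference 1.52 ± 0.21, adjusted p = 0.0033).

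Some genes of the MATE family, carriers that export toxic compounds and organic acids, were higher. Of 41 tested, 7 were higher (17.1%, beside 7.41% of all genes), all against each wild-type library, and 1 was lower; 7, 7, 4 and 4 were higher with the libraries left out in turn. This family was chosen after its values were seen. On the glutathione transferase and oxidative stress list 21.6% were higher and 5.41% lower, beside 7.41% and 5.5% of all genes. The aluminium resistance list had 20% higher and 10% lower. Of 37 glutathione transferase and oxidative stress genes 8 were higher and 2 lower, 5 and 1 against each wild-type library, with 7, 13, 5 and 4 higher when the libraries were left out in turn. GSTU22, a tau-class glutathione transferase, was at 1.59 and 2.89 CPM in wild type and 15.7 and 19.1 in cml24-2 (log2 difference 2.96 ± 0.21, adjusted p = 0.00016). GSTU26 of the same class was lower at 37.0 and 37.0 CPM in wild type and 19.5 and 17.6 in cml24-2 (log2 difference -0.99 ± 0.13, adjusted p = 0.0029). On the aluminium resistance list 4 of 20 were higher and 2 lower, 2 and 1 against each wild-type library (3, 4, 1 and 1 higher with the libraries left out). ALMT1, the channel that releases malate to bind aluminium outside the root, was at 0.793 and 1.07 CPM in wild type and 5.86 and 3.19 in cml24-2 (log2 difference 2.27 ± 0.35, adjusted p = 0.0053) without any aluminium given. For comparison, it reached 53.2 and 47.0 CPM in wild type and 54.2 and 48.2 in cml24-2 after aluminium.

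Some genes of growth hormones and of stem cells were higher. Shares of higher and lower members were 15.2% and 6.52% for gibberellin, brassinosteroid and cytokinin, and 20% and 2.5% for auxin. They were 33.3% and 0% for stem cells and 6.45% and 6.45% for the cell cycle, beside 7.41% and 5.5% of all genes. On the list of gibberellin, brassinosteroid and cytokinin genes 7 of 46 were higher and 3 lower, 5 and none against each wild-type library, with 6, 8, 2 and 4 higher when the libraries were left out. GA2OX2, which inactivates gibberellin, was at 4.52 and 2.81 CPM in wild type and 37.7 and 42.0 in cml24-2 (log2 difference 3.43 ± 0.17, adjusted p = 1.7e-05). The synthesis gene GA20OX2 was at 4.20 and 3.22 CPM in wild type and 9.12 and 8.40 in cml24-2 (log2 difference 1.24 ± 0.23, adjusted p = 0.011), and GA20OX3 was at 0.159 and 0.248 CPM in wild type and 2.43 and 2.69 in cml24-2 (log2 difference 3.59 ± 0.50, adjusted p = 0.0044). The call of GA20OX2 was lost without cml24-2 replicate 1 (adjusted p = 0.072). So genes for both the making and the inactivation of gibberellin were higher. Of 40 auxin genes 8 were higher and 1 lower, 1 and 1 against each wild-type library (1, 8, 0 and 2 higher with the libraries left out in turn). Of 15 stem cell and meristem genes 5 were higher, 2 against each wild-type library, and none was lower (2, 5, 3 and 2 higher with the libraries left out). PLT3 (AT5G10510), a PLETHORA factor of the root tip, was at 77.2 and 70.4 CPM in wild type and 202 and 187 in cml24-2 (log2 difference 1.4 ± 0.10, adjusted p = 0.00016). SHR, which patterns the ground tissue, was at 49.4 and 46.8 CPM in wild type and 69.1 and 71.4 in cml24-2 (log2 difference 0.55 ± 0.09, adjusted p = 0.0052). Cell cycle genes had 2 of 31 higher and 2 lower, with 1 of the lower ones called against each wild-type library. With the libraries left out in turn 0, 2, 0 and 1 were higher and 2, 2, 0 and 0 lower, and DESeq2 called 1 higher and none lower.

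Autophagy, flowering, heat and cold genes were counted because CML24 has been tied to some of these processes. Shares of higher and lower members were 9.09% and 13.6% for autophagy, 6.67% and 6.67% for flowering, and 11.5% and 7.69% for heat. They were 7.32% and 9.76% for abscisic acid and cold and 5% and 0% for the clock, beside 7.41% and 5.5% of all genes. Of 22 autophagy genes 2 were higher and 3 lower, all 5 against each wild-type library; fewer were called without a mutant library (2, 2, 1 and 1 higher and 3, 4, 2 and 1 lower in the usual order). ATG8H, a ubiquitin-like protein of the autophagosome, was at 40.9 and 39.0 CPM in wild type and 19.2 and 16.7 in cml24-2 (log2 difference -1.15 ± 0.12, adjusted p = 0.00092). NBR1, a receptor that carries cargo to it, was at 344 and 271 CPM in wild type and 581 and 609.8 in cml24-2 (log2 difference 0.95 ± 0.13, adjusted p = 0.0027). Of 15 flowering genes 1 was higher and 1 lower, the lower one being SVP, a MADS-box repressor of flowering, at 10.4 and 11.6 CPM in wild type and 5.10 and 4.28 in cml24-2 (log2 difference -1.22 ± 0.20, adjusted p = 0.0066). Of 26 heat shock and folding genes 3 were higher and 2 lower (3, 7, 2 and 4 higher and 6, 1, 0 and 1 lower with the libraries left out). HSFA3, a heat stress factor, was at 2.62 and 4.21 CPM in wild type and 12 and 10.5 in cml24-2 (log2 difference 1.72 ± 0.22, adjusted p = 0.0023). DREB2B, a stress-responsive factor of the DREB group, was at 2.46 and 2.48 CPM in wild type and 19.6 and 15.4 in cml24-2 (log2 difference 2.82 ± 0.28, adjusted p = 0.00088). Of 41 abscisic acid and cold genes 3 were higher and 4 lower, 1 and 2 against each wild-type library (1, 8, 0 and 0 higher and 3, 5, 1 and 1 lower with the libraries left out), the lower ones including KIN2, a cold-induced protein with shared reads, at 23.6 and 23.0 CPM in wild type and 6.28 and 4.87 in cml24-2 (log2 difference -2.06 ± 0.18, adjusted p = 0.00039). The clock list had 1 of 20 higher and none lower.

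Markers of root tissues were expressed in these libraries, with all 30 root hair markers among the genes tested. The lists for the endodermis (13 tested), suberin (19), root cap (10) and xylem and phloem (15) had 1, 1, none and 3 higher members and none, none, 1 and none lower, and 1 of these higher and 1 lower member were called against each wild-type library. FAR1, a fatty acid reductase of suberin, was that higher one, at 12.8 and 11.7 CPM in wild type and 23.5 and 26.8 in cml24-2 (log2 difference 1.04 ± 0.15, adjusted p = 0.0044). FAR1 went against its list, where 2 log2 differences were positive and 17 negative (median -0.25). The endodermis list had 3 positive and 10 negative (median -0.22), root cap 8 and 2 (0.39), and xylem and phloem 8 and 7 (0.11). Higher shares were 7.69% (endodermis), 5.26% (suberin), 0% (root cap) and 20% (xylem and phloem), beside 7.41% of all genes. DESeq2 called none of the xylem and phloem members higher. Against wild-type replicate 2 alone 8 suberin members were lower. The 30 markers of photosynthetic shoot tissue summed to 204.8 and 309.4 CPM in wild type and 379.1 and 523.5 CPM in cml24-2, with 1 member higher and none against each wild-type library (median 0.91). With wild-type replicate 1 as the sole control 16 of them were higher. Transcripts encoded in the chloroplast summed to 446.7 and 540.5 CPM in wild type and 746 and 637 CPM in cml24-2, and 9 of 42 were higher (21.4%, beside 7.41% of all genes), 6 against each wild-type library, with 6, 11, 0 and 1 higher when the libraries were left out in turn. The part of shoot or plastid RNA in the other differences was not tested. The lists for flavonoids (13 tested) and plastid gene expression (21) had none and 1 higher and none lower. Higher members made up 4.76% of the plastid list and 3.33% of the photosynthesis list, beside 7.41% of all genes. All 30 photosynthesis markers nevertheless had a positive log2 difference, and their median with aluminium was 1.78. On the plastid list 15 log2 differences were positive and 6 negative.

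**Figure D4:**
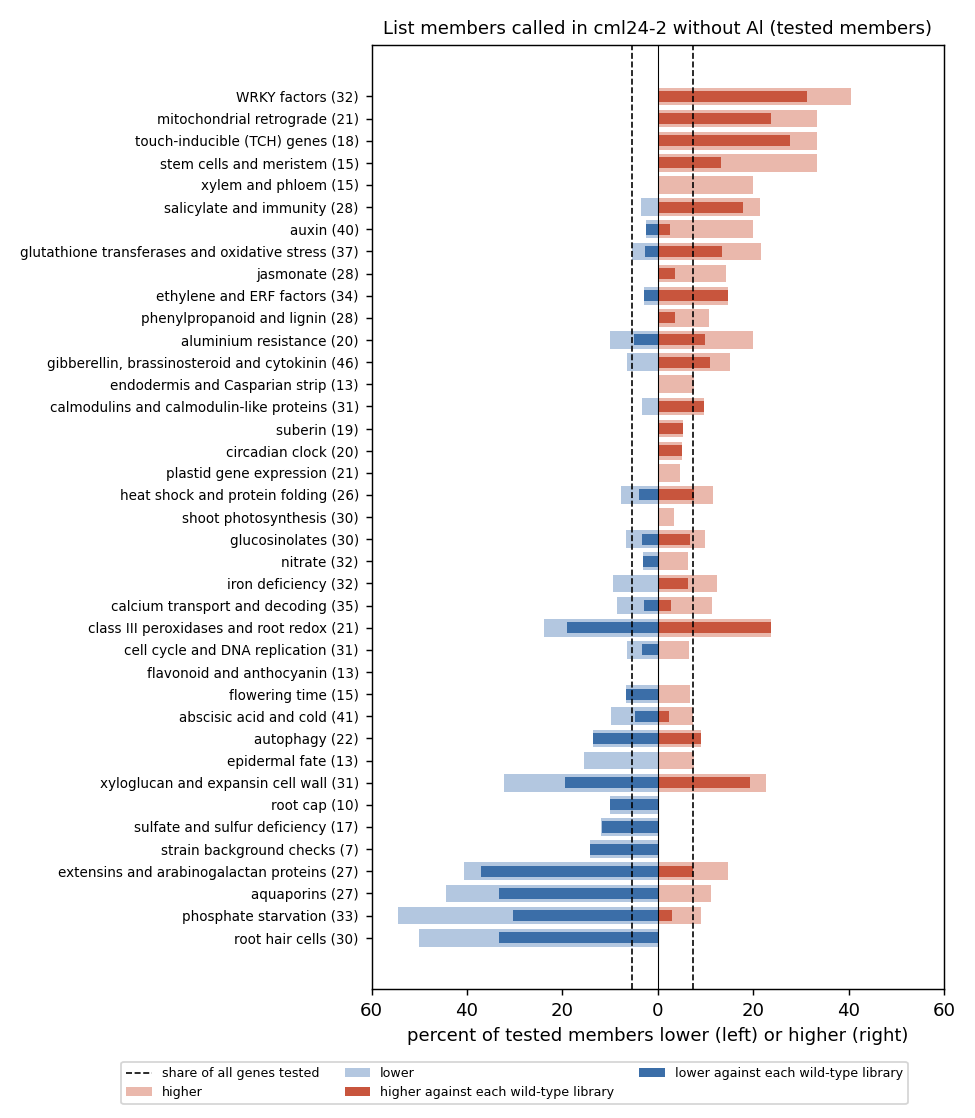
Percent of the tested members of each gene list (number tested in brackets) that were lower (left) or higher (right) in cml24-2 without aluminium; pale bars are calls with both wild-type libraries, dark bars calls against each, and dashed lines mark 5.5% lower and 7.41% higher over all genes. Phosphate starvation with 18 of 33 and root hairs with 15 of 30 lower stand farthest to the left, and WRKY factors with 13 of 32 higher farthest to the right.

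The same genotypes after 10 μM aluminium gave a comparison in 4 other libraries. There 938 genes were higher in cml24-2 (4.63%) and 687 lower (3.39%). Of the 742 genes higher against each wild-type library without aluminium, 684 (92.2%) had the same sign with aluminium, and 335 (45.1%) were called the same way. Of the 602 lower ones, 511 (84.9%) had the same sign and 190 (31.6%) were called the same way. Over all genes tested 49.5% had the higher sign with aluminium and 50.4% the lower. The opposite call was made for 13 genes. NDB4 was kept at a log2 difference of 5.19 ± 0.40, adjusted p = 0.00054, QQS at -4.87 ± 0.31, adjusted p = 0.00038, AT4G29200 at -7.12 ± 0.44, adjusted p = 0.00038 and PHT1;8 at -1.23 ± 0.17, adjusted p = 0.006. The 525 genes called the same way numbered 96, 103, 191 and 165 without wild-type replicate 1, wild-type replicate 2, cml24-2 replicate 1 and cml24-2 replicate 2 of the libraries with aluminium.

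The size of the genotype difference itself changed with aluminium for some genes. The interaction was called for 61 genes of all tested (0.301%), and for 36 of the 742 higher and 14 of the 602 lower genes. These higher and lower genes were chosen by the difference without aluminium, which the interaction subtracts. Their counts can therefore not be set against the share of all genes. GSTU22, at 131 and 136 CPM in wild type and 135 and 136 in cml24-2 with aluminium, did not pass the test there (log2 difference 0.02 ± 0.14, adjusted p = 0.96). AGP22 was at 10.3 and 11.2 CPM in wild type and 10.7 and 10.1 in cml24-2, below its untreated level in every library. PRX52 reached 118 and 103 CPM in wild type and 97.9 and 94.3 in cml24-2. In each the untreated mutant lay between the untreated wild type and the libraries with aluminium. AT5G13210, at 24.8 and 27.2 CPM in wild type and 55.6 and 53.0 in cml24-2, kept a smaller difference of 1.06 ± 0.09, adjusted p = 0.00098.

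**Figure D5:**
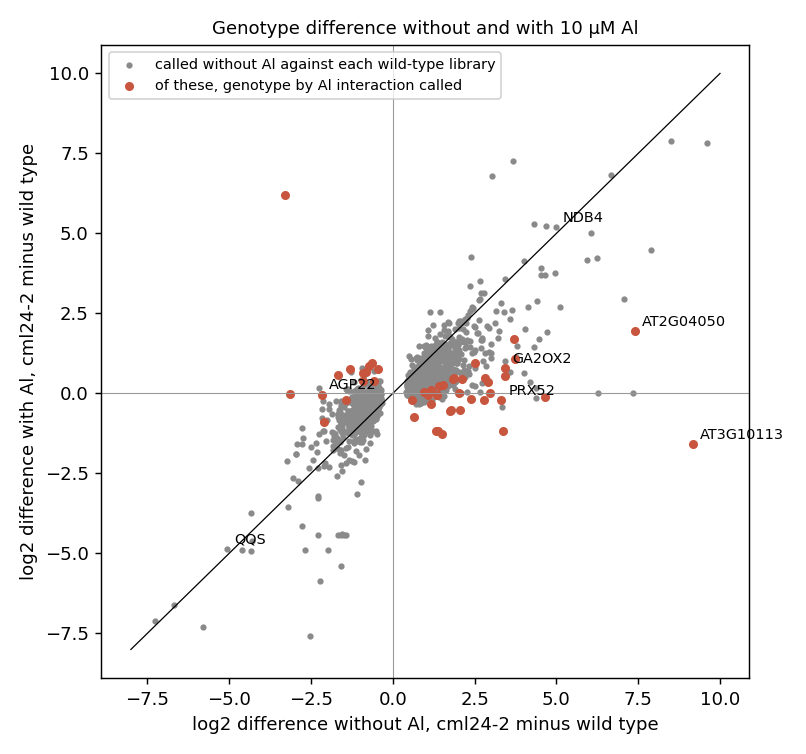
Log2 difference of cml24-2 from wild type without aluminium (x axis) and with 10 μM aluminium (y axis) for the 1344 genes called against each wild-type library without aluminium; red points are the 50 with a called interaction, and the line marks equal differences. QQS and NDB4 lie near the line, and PRX52 and AGP22 lie near 0 on the y axis.

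Genes called against each wild-type library were spread over all chromosomes. They made up 6.82%, 6.49%, 6.93%, 7.14% and 5.91% of the genes tested on chromosomes 1 to 5, beside 6.63% over all genes. Around CML24, 0 of the 40 nearest tested genes (20 on each side), 3 of the nearest 100 and 11 of the nearest 200 (5.5%) were called so. With both controls together 4, 8 and 20 of these genes were called (10%, 8% and 10%), beside 12.9% of all genes.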

How the data were processed

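Root RNA of 8 libraries (2 genotypes, with and without aluminium, 2 libraries each) was sequenced on the BGISEQ-500 platform, per the labels' protocols. The deposited tables hold, per library, expected counts and FPKM for each gene that the authors listed. RSEM is named in the submitters' processing notes, without a version. No aligner or genome build is given in the sources used here; the listed lengths of 12101 of 12101 single-transcript genes equalled RefSeq lengths in TAIR10.1, which was used for names (24086 of 24279 gene IDs matched), positions and promoter windows. Unlisted genes were counted as 0, the smallest listed FPKM being 0.01. Deposited expected counts were rounded and analysed in R 4.3.3 with edgeR 4.0.16: filterByExpr by group, TMM scaling, quasi-likelihood tests with 1 mean for each group, fitted to the 8 libraries together (residual degrees of freedom 4, common biological coefficient of variation 11%), Benjamini-Hochberg adjustment over 20262 genes. Of the deposited expected counts, 89.1% to 89.5% per library were whole within 0.005, and a gene with others was taken to share reads. Besides the genes described so, AT2G04050, CML12 and AT4 shared reads in 2 of the 4 libraries without aluminium. UGT74E2, XTH20 and WRKY40 shared them in 3. DTX1, PRX52, TCP2, CYP94B3, CML38 and CML39 did so in 1. Libraries held 1.17e+07 to 1.22e+07 expected counts, so 3 counts equal 0.246 to 0.255 CPM. Intervals and floors cover counting error only.

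Named genes were CML24, the 15 largest log2 differences in each direction among genes called against each wild-type library with groups apart and a mean FPKM of at least 2 in the higher group, up to 5 members of each of 39 gene lists with the smallest p plus further members as examples, the strain checks, and genes stated as chosen after their values were seen. The comparison, its gene lists and its tests were chosen with earlier results of these data known. Alternatives were DESeq2 1.42.0, limma 3.58.1 on log2(FPKM + 1) and log2(FPKM + 0.1), RLE scaling, other filters, the 4 libraries without aluminium alone, a replicate block and leaving out each library. The scripts were tested on simulated counts.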

Additional observations from a re-analysis of the deposited data

Results flagged for a closer look

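For 16 of the named genes the difference between genotypes with aluminium departed from that without aluminium in the test of the interaction. Each value below is the interaction on the log2 scale, the genotype difference with aluminium minus that without. The genes were mostly named for their difference without aluminium, which the interaction subtracts. That choice favours an interaction of the opposite sign, so the signs below are no separate result.

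In 13 genes that were higher in the untreated mutant the interaction was negative. With aluminium 10 of them had a smaller difference of the same sign. Among those 10, EXT1, AT5G39580 and DREB2B did not pass the test there (log2 0.44, 0.45 and 0.47, adjusted p = 0.12, 0.074 and 0.25). Nor did GSTU22 and AT5G10695, at log2 0.02 each (adjusted p = 0.96 and 0.96), too small for their sign to count. PRX52, UGT74E2 and AT3G10113 had a difference of the opposite sign that did not pass the test (log2 -0.21, -1.19 and -1.58, adjusted p = 0.43, 0.13 and 0.067). In UGT74E2 and AT3G10113 both mutant libraries were then below both of wild type. For GA2OX2 the interaction was -2.64, adjusted p = 0.0026, with 45.3 and 44.8 CPM in wild type and 78.8 and 77.5 in cml24-2 after aluminium. For PRX52 it was -3.52, adjusted p = 0.0043, and for GSTU22 it was -2.95, adjusted p = 0.0026. For EXT1 it was -1.68, adjusted p = 0.02, with 2099.6 and 2514 CPM in wild type and 3023 and 3218 in cml24-2 after aluminium. For AT5G39580 it was -1.41, adjusted p = 0.024, for AT5G10695 -2.0, adjusted p = 0.023 and for AT2G18193 -2.89, adjusted p = 0.0004. In these 7 genes the wild-type levels with aluminium were above those of the untreated mutant. AT5G13210 had -2.66, adjusted p = 0.00015 and EMB1030 had -2.0, adjusted p = 0.0026, with 9.62 and 11 CPM in wild type and 36.2 and 31.2 in cml24-2 after aluminium, below the untreated mutant. AT2G04050 had -5.45, adjusted p = 0.011, with 0.829 and 0.606 CPM in wild type and 3.1 and 2.51 in cml24-2. UGT74E2 had -4.56, adjusted p = 0.033, with 5.22 and 4.33 CPM in wild type and 1.93 and 2.26 in cml24-2. DREB2B had -2.35, adjusted p = 0.049. AT3G10113 had -10.75, adjusted p = 0.018, a fitted value that depends on the prior count, as wild type had no read without aluminium, and 5.47 and 9.35 CPM in wild type and 2.76 and 2.17 in cml24-2 after it.

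In 3 genes that were lower in the untreated mutant the interaction was positive: AT4G11190 at 3.12, adjusted p = 0.043, AGP22 at 2.12, adjusted p = 0.0086 and XTH16 at 2.07, adjusted p = 0.015. XTH16 was at 3.32 and 2.34 CPM in wild type and 4.69 and 4.85 in cml24-2 after aluminium, and AT4G11190 at 1.33 and 2.94 CPM in wild type and 2.01 and 2.17 in cml24-2. Wild type was below its untreated level in all 3.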

How the results depend on the processing

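The 1501 higher genes became 987 with DESeq2 and 481 with the 4 libraries without aluminium alone, and the 1115 lower ones became 407 with those 4 libraries; leaving out each of the 8 libraries gave 516 to 1898 higher and 291 to 1309 lower. Against each wild-type library, the 742 higher became 445 with DESeq2, 359 with the 4 libraries and 398 when each cml24-2 library was also left out. The 602 lower became 253, 346 and 197 under the same 3, and 370 with limma on log2(FPKM + 0.1). Genes called the same way with aluminium (525) became 313 with DESeq2, 338 with that limma fit and 96 to 673 with a library left out. DESeq2 called 1223 of the 1344 genes called against each. Of the calls, 57.4% were higher, and 51.4% with RLE scaling. Between groups, the deviations of libraries with the same replicate number correlated at -0.19 to 0.18. So few pairs cannot tell whether the numbers pair the samples. With a replicate block 1402 and 1129 genes were called, and 757 and 656 against each. Of 109 called named genes, 98 kept their call under every alternative that gave a value and 11 lost it under at least 1: 10 without cml24-2 replicate 1, 7 without replicate 2 and 3 with the 4 libraries alone. CML23, not called, turned to -0.50 without wild-type replicate 1 and -0.52 without cml24-2 replicate 1, and MAF2, not called, to 0.11 without wild-type replicate 1 (-0.32 without wild-type replicate 2); the cause was not tested. Of 60 list counts above 0, 55 moved by over 1.5 times without some library. The alternatives without each cml24-2 library for the counts against each, and all those for gene families and for the genes with aluminium, were chosen after seeing the data.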
